A study of Drosophila melanogaster with 12 samples.

Results

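RNA levels of embryos lacking maternal serine hydroxymethyl transferase (SHMT) were compared with those of wild-type embryos at the collection labelled 1.5–2.5 hr, late blastoderm. The comparison took every library with that stage label, 3 from wild type and 3 from SHMT embryos, 6 of the 12 libraries of the series. Each library was made from total RNA of whole, dechorionated embryos, and its values are numbers of reads per gene. Of the 14161 genes in the files, the 6566 that averaged 50 counts or more in either group were tested.

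The wild-type group is the OregonR strain. The SHMT group consists of embryos laid by females with germline clones of the X238 allele, a premature stop codon in the X-linked gene CG3011. Germline clones are made by mitotic recombination, so that the egg and its nurse cells lack the wild-type gene while the follicle cells and the rest of the mother still carry it. The mutant chromosome carries a recombination site for making the clones and visible markers. For the RNA libraries the study names pn as a marker of the SHMT chromosome, and of the 2 chromosomes it describes, 1 carries y, pn and sn and the other w and f. Wild type went through no such recombination, so the allele, the marker chromosome and the strain background differ together between the groups and cannot be told apart. The study calls the 3 libraries of a group biological replicates, the labels name no separate collections, and p-values measure the spread between these libraries.

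SHMT interconverts serine and glycine and passes a carbon unit to tetrahydrofolate. The folate pool feeds the synthesis of purines and thymidylate and, by way of methionine, methylation. In Drosophila the egg is loaded with maternal RNA and runs its first nuclear divisions on it. Around the midblastula transition most maternal RNAs of the unstable class are degraded, the zygotic genome is switched on and the nuclei are enclosed by membranes in cellularization.

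The stage markers were checked against the label first. Levels are given as CPM, counts per 1000000 reads in genes, here on the scale of all 12 libraries. The pair-rule gene eve, transcribed by the zygote, had 0.275, 0.846 and 0.0542 CPM in the 3 wild-type replicates and 0.0816, 0.0636 and 0 CPM in the 3 of SHMT at this label, against 72.5, 39.7 and 67.0 CPM in wild type labelled 0–1 hr. The maternal gene exu, which acts in localizing bicoid RNA, had 315, 413 and 387 CPM in wild type against 333, 269 and 216 in SHMT. In the 6 libraries labelled 0–1 hr, exu lay between 8.29 and 13.7 CPM. The zygotic gene slam, needed for cellularization, lay between 146 and 203 CPM at the 1.5–2.5 hr label and between 1661 and 6201 CPM at the other. The maternal gene cort, an activator of the anaphase-promoting complex in female meiosis, lay between 46.3 and 75.7 CPM and between 0.493 and 1.49 CPM. Both genotypes thus ran against the stage label, with zygotic RNAs low and maternal RNAs high in the libraries labelled late blastoderm. All 6 libraries share this, so no result could be recomputed without such libraries. If the 2 stage labels were exchanged in the deposited data, these libraries would be the earlier collection and every value given here for the 1.5–2.5 hr label would be a value of that collection. In the study's list, GstD3 differs more between the genotypes at 0–1 hr than at 1.5–2.5 hr, and pn less. CG43163 there is higher in SHMT at 0–1 hr and lower at 1.5–2.5 hr. By label, the values here run the other way. The log2 difference of SHMT minus wild type was 8.15 for GstD3 at the 1.5–2.5 hr label and 2.74 at the 0–1 hr label. It was −3.48 and −5.10 for pn, and 5.58 and −2.49 for CG6915, now part of CG43163. Whether the labels were exchanged was not tested, so the libraries are named by their label, 1.5–2.5 hr, and no stage is read from it.

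**Figure D1:**
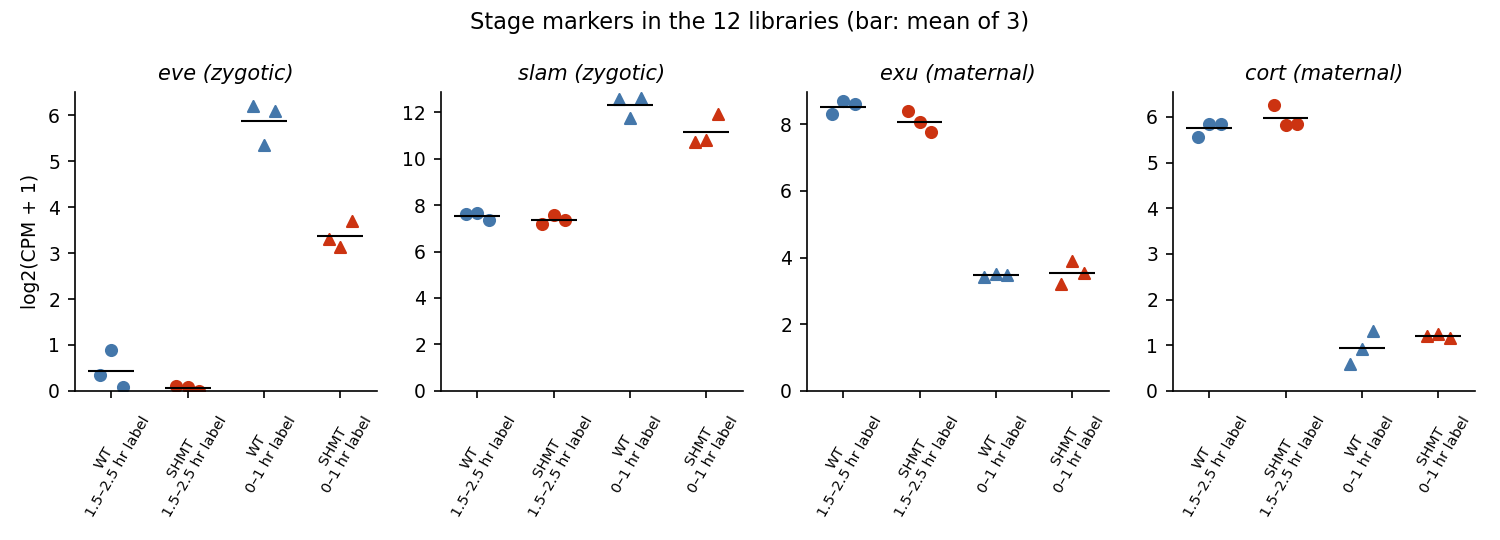
Levels of the zygotic genes eve and slam and the maternal genes exu and cort in the 12 libraries, as log2(CPM + 1), with 1 point per library and a bar at the mean of each group of 3. In both genotypes the zygotic markers are low and the maternal markers high at the 1.5–2.5 hr label, for example exu at 315, 413 and 387 CPM in wild type.

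No stage marker passed the test between the genotypes in the fit of the 6 libraries. From here on CPM are on the scale of the 6 libraries (TMM scaling in edgeR, which balances the libraries on the bulk of their genes), with the wild-type replicates 1 to 3 given first and those of SHMT after "against", differences are log2 differences of SHMT minus wild type ± SE from edgeR's quasi-likelihood test, and adjusted p-values are Benjamini-Hochberg values over all 6566 genes. The difference was −0.42 ± 0.16, adjusted p = 0.10 for exu, 0.27 ± 0.13, adjusted p = 0.20 for cort and −0.15 ± 0.10, adjusted p = 0.32 for slam, and eve was below the count minimum. With DESeq2 exu passed (adjusted p = 0.033), as it did without SHMT replicate 1 (adjusted p = 0.014). The summed level of 9 maternal markers, exu among them, lay between 2947 and 3229 CPM for wild type and between 2308 and 2655 CPM for SHMT on the 12-library scale, with no overlap, and was not tested. The embryonic gene kuk, which shapes the blastoderm nuclei, stood at 906, 827 and 835 CPM in wild type against 712, 775 and 764 in SHMT (−0.19 ± 0.061, adjusted p = 0.065), with no overlap, and passed with DESeq2 (adjusted p = 0.018) and with library sizes alone (adjusted p = 0.033). Of 18 early zygotic genes 7 were tested, kuk among them, and none passed in edgeR, with 1 under an unadjusted p of 0.05. In the 12-library fit none passed either. The members bnk and Z600 had few reads and varied several-fold within each group. The zygotic gene bnk, a regulator of the cellularization furrow, stood at 7.43, 28.5 and 2.54 CPM in wild type against 3.56, 27.7 and 1.37 in SHMT, and Z600, which encodes the mitotic inhibitor Frühstart, at 2.94, 8.12 and 0.403 against 0.674, 5.52 and 0.480 CPM. Replicate 2 was the highest SHMT library for all 7 and the highest wild-type library for 6 of 7.

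The genotype was checked on genes of the mutant chromosome. The marker gene pn, known for its eye colour mutants and encoding a member of a phosphoesterase family, stood at 48.2, 46.5 and 43.9 CPM in wild type against 3.95, 4.55 and 3.91 in SHMT (−3.48 ± 0.089, adjusted p = 3.7e-07). The groups lay far apart and each held within a narrow range. The marker gene sn, which encodes the actin-bundling protein fascin, stood at 292, 285 and 297 CPM in wild type against 148, 149.8 and 146 in SHMT (−0.98 ± 0.052, adjusted p = 2.0e-05). The white gene w, an eye pigment transporter, was at 1.36, 1.96 and 2.14 against 2.26, 1.77 and 2.36 CPM (0.23 ± 0.25, adjusted p = 0.56), and y and f were at or near 0 in both groups. CG3011, the mutated gene, stood at 89.2, 98.0 and 101 CPM in wild type against 145, 104 and 118 in SHMT (0.35 ± 0.12, adjusted p = 0.070, 95% interval 0.084 to 0.61). No SHMT library was below a wild-type one. A stop codon need not lower the RNA, so this level does not check the genotype.

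The wild-type libraries held 31512172 to 35106444 reads in genes and the SHMT libraries 21045142 to 27783659. The replicates were not copies of each other, and they stood 11.4 to 14.8 times the sampling noise from each other in wild type and 21.0 to 42.1 times in SHMT (chi-square over its degrees of freedom). The first principal component held 69.5% of the variance and separated the genotypes. The second held 17.9% and set SHMT replicate 2 (18.8) apart from SHMT replicates 1 (−8.08) and 3 (−9.50). In wild type too it placed replicate 2 highest (7.19) and replicate 3 lowest (−10.9), with replicate 1 at 2.44. Markers of other tissues were low. The 19 follicle cell and eggshell genes together had between 0.284 and 0.527 CPM in wild-type libraries and between 0.361 and 0.963 in those of SHMT, and 5 of them had no read. The 13 yolk, fat body and hemocyte genes summed to at most 2.99 CPM, and none of either list was tested. The 15 genes of later embryonic tissues together had between 3.82 and 5.07 CPM in wild-type libraries and between 0.974 and 7.99 in those of SHMT, where replicate 1 was the highest, and only the titin-family gene bt was tested and fell. The 11 testis genes summed to 6.83 to 7.81 CPM and 9.87 to 10.6 CPM, and only mia was tested and rose (0.46 ± 0.12, adjusted p = 0.037), though not with library sizes alone.

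Of the 6566 genes, 572 (8.71%) were higher and 666 (10.1%) lower in SHMT at an adjusted p under 0.05. Most of these differences were small. The median size was 1.33-fold for the higher and 1.29-fold for the lower genes, and 373 of the 572 and 495 of the 666 differed by less than 1.5-fold. Over 4-fold, 40 genes (0.609%) were higher and 31 (0.472%) lower. The 3 libraries of a group did not overlap with those of the other in 570 of the 572 and in all 666 genes. Over all 6566 genes tested, the groups did not overlap in 2542. Nearly every call thus lacks overlap, and where this is said of a called gene it describes the values and adds no support. The median over all genes tested was 0.0042. The number of small differences depended on the fit. With library sizes alone in place of scaled ones 450 were higher and 849 lower. With all 12 libraries in 1 model 196 genes were higher and 286 lower, and 70 of the 71 genes over 4-fold were called there too. Leaving out wild-type replicate 1, 2 or 3 or SHMT replicate 3 left 279, 294, 272 and 341 genes higher and 372, 450, 375 and 388 lower, while 63 to 69 of the 71 stayed called over 4-fold in each fit with a library left out.

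**Figure D2:**
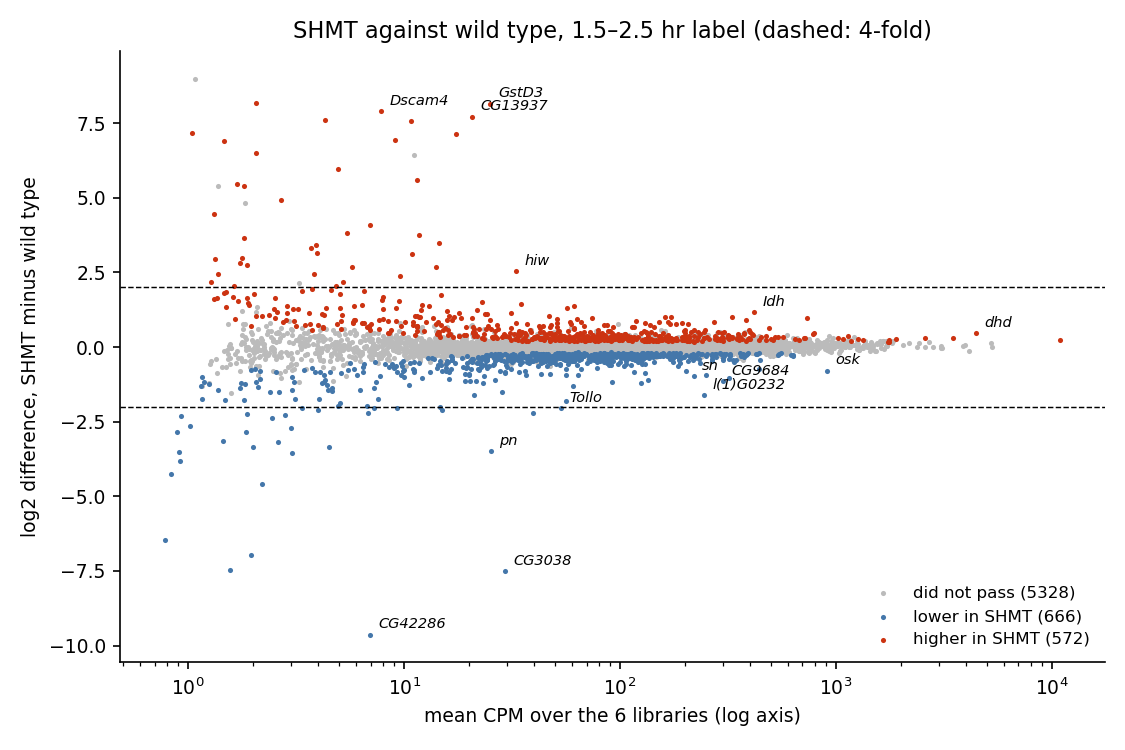
Log2 difference of SHMT minus wild type against the mean CPM of the 6 libraries (log axis) for each of the 6566 genes tested, coloured by whether the gene passed an adjusted p of 0.05, with dashed lines at 4-fold. Most of the 572 higher and 666 lower genes lie close to 0, and the differences over 4-fold sit mainly at low CPM. Tollo and hiw, like pn, CG3038 and GstD3, lie at higher CPM than most genes over 4-fold.

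GstD3 had the largest difference of the genes that rose with at least 100 counts and no overlap between the groups. It encodes a glutathione transferase, an enzyme that couples glutathione to reactive compounds. GstD3 stood at 0.126, 0.168 and 0.217 CPM in wild type against 56.9, 47.1 and 45.0 in SHMT (8.15 ± 0.18, adjusted p = 2.4e-07). It was close to 0 in every wild-type library and within a narrow range in SHMT.

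Other glutathione transferases moved in this direction. Of 19 tested members of the 36 in the files, 10 (52.6%) rose, against 8.71% of all genes tested, and none fell, with a median difference of 0.28. Among the 10, GstD3 averaged 5.67 counts in wild type, under the minimum of 50, and was tested only through SHMT. GstD9 stood at 20.2, 16.2 and 20.0 CPM in wild type against 53.7, 49.0 and 49.6 in SHMT (1.44 ± 0.093, adjusted p = 5.6e-05), and GstE6 at 24.6, 31.1 and 42.1 against 91.3, 75.2 and 77.0 CPM (1.32 ± 0.17, adjusted p = 0.0018). CG9362 (GstZ1), an enzyme that in mammals acts in tyrosine breakdown, stood at 6.80, 7.14 and 5.76 against 17.3, 19.0 and 16.3 CPM (1.42 ± 0.12, adjusted p = 2.3e-04), and CG1702 (GstT3) at 35.0, 33.5 and 32.0 against 52.7, 59.8 and 51.0 CPM (0.70 ± 0.075, adjusted p = 6.4e-04). The groups did not overlap in any of these 4 genes. GstD1, an enzyme that can metabolize DDT, rose less, from 664 ± 67.7 to 902 ± 108 CPM (SD, n = 3, 0.44 ± 0.10, adjusted p = 0.021). In the 12-library fit 7 of the 10 passed, without GstD1 (adjusted p = 0.26), CG30000 (GstT1) and Mgstl. GstD genes are close copies of each other in 1 cluster, and reads shared by copies may have been counted to another member or dropped.

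Other enzymes of detoxification moved both ways. Of 16 cytochrome P450 genes tested 4 rose and 3 fell, against 8.71% and 10.1% of all genes (median −0.028). Cyp4p2, the P450 with the largest difference, stood at 0.126, 0.196 and 0 CPM in wild type against 28.3, 23.8 and 12.4 in SHMT (7.55 ± 0.55, adjusted p = 9.3e-05). Cyp6t1 stood at 14.5, 18.2 and 17.7 against 27.4, 26.2 and 22.6 CPM (0.60 ± 0.11, adjusted p = 0.0099), and Cyp4e2 at 73.2, 74.1 and 72.0 against 59.2, 61.6 and 60.7 CPM (−0.27 ± 0.050, adjusted p = 0.0085). The members thus did not share a direction, and Cyp6t1 and Cyp4e2 did not pass in the 12-library fit (adjusted p = 0.10 and 0.082). Among 7 tested glycosyltransferases and drug transporters 2 rose and 3 fell, for example Dot (Ugt36A1, 1.31 ± 0.20, adjusted p = 0.0041) and CG30438 (Ugt50B3, −1.43 ± 0.23, adjusted p = 0.0051). The juvenile hormone epoxide hydrolases Jheh1, Jheh2 and Jheh3, neighbours on chromosome arm 2R and chosen after their values were seen, all fell, with differences of −1.15 ± 0.10, adjusted p = 2.0e-04 for Jheh1, −0.51 ± 0.063, adjusted p = 0.0012 for Jheh2 and −0.99 ± 0.11, adjusted p = 7.2e-04 for Jheh3.

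Some of the genes over 4-fold higher in SHMT had almost no reads in wild type. In 17 of the 40, GstD3 among them, wild type averaged under 0.3 CPM and SHMT over 2 CPM. CG42330 (Dscam4), a relative of the neuronal adhesion receptor Dscam, stood at 0.0948, 0.0560 and 0.0310 CPM in wild type against 18.1, 13.6 and 14.9 in SHMT (7.91 ± 0.28, adjusted p = 2.4e-06). CG13937 stood at 0.474, 0.0840 and 0.0310 against 40.6, 42.9 and 40.0 CPM (7.72 ± 0.37, adjusted p = 1.0e-05). CG32581 (sordd2) stood at 0.601, 0.112 and 0.0310 against 33.2, 36.0 and 34.2 CPM (7.13 ± 0.42, adjusted p = 3.4e-05). These 3 genes were nearly silent in wild type and even across the SHMT libraries. CG13532 was at 0.0632, 0.0560 and 0 against 7.94, 9.53 and 8.19 CPM, CG14879 at 0.158, 0.196 and 0.0929 against 9.77, 9.74 and 9.63 CPM, and CG13032 at 0.0632, 0.0280 and 0.0310 against 3.80, 5.16 and 3.21 CPM. CG6915, now part of CG43163, stood at 0.506, 0.420 and 0.465 against 33.9, 14.7 and 18.5 CPM (5.58 ± 0.38, adjusted p = 6.2e-05), with replicate 1 the highest of the SHMT libraries.

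The 40 also held genes of metal handling, lipid droplets and metabolism, chosen after their values were seen. Zip3 (Zip89B), a zinc transporter, stood at 0.126, 0.0560 and 0.248 CPM in wild type against 21.3, 17.0 and 15.5 in SHMT (6.95 ± 0.33, adjusted p = 1.0e-05). MtnA, a metallothionein that binds copper and other metals, stood at 0.980, 1.51 and 1.08 against 5.83, 7.90 and 5.68 CPM (2.43 ± 0.24, adjusted p = 4.5e-04). Lsd-1, a perilipin that coats lipid droplets, stood at 2.72, 2.35 and 1.61 against 23.8, 18.3 and 16.3 CPM (3.12 ± 0.23, adjusted p = 9.0e-05). The groups were apart in each. Of 16 tested genes of zinc and copper handling 3 (18.8%) rose and 2 (12.5%) fell, against 8.71% and 10.1% of all genes. Their median was −0.10, against a median of 0.0042 over all genes. The copper importer Ctr1A was among those that fell (−0.52 ± 0.090, adjusted p = 0.0066). Sodh-2, a sorbitol dehydrogenase, stood at 1.71, 1.85 and 1.30 against 32.7, 17.5 and 15.4 CPM (3.75 ± 0.32, adjusted p = 2.0e-04), and CG4095 (Fum2), a fumarase, at 0.0948, 0.112 and 0 against 3.51, 3.28 and 3.06 CPM (5.47 ± 0.50, adjusted p = 3.0e-04).

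Further genes of the 40 are described singly, chosen after their values were seen. The gene hiw, for a ubiquitin ligase that restrains synapse growth, stood at 9.51, 9.52 and 10.1 CPM in wild type against 64.2, 40.9 and 64.1 in SHMT (2.54 ± 0.17, adjusted p = 6.3e-05). Fas2, the fly neural cell adhesion molecule, stood at 0.411, 0.224 and 0.558 against 2.84, 2.74 and 3.91 CPM (2.99 ± 0.34, adjusted p = 8.8e-04). CG6954 (wake), which acts in circadian control of sleep, stood at 2.21, 1.37 and 1.05 against 8.38, 7.69 and 13.8 CPM (2.69 ± 0.33, adjusted p = 0.0012). In none of these 3 did the groups overlap. For Ac76E, an adenylate cyclase, 1 read in the wild-type libraries stood against 154 in SHMT, a ratio of 203 (95% counting interval 35.9 to 8071). Grd, a subunit of a ligand-gated chloride channel, had 2 reads against 223, a ratio of 147 (40.2 to 1221). These intervals cover counting error only. Nplp3, a neuropeptide precursor, was called with 1.25, 0 and 11.1 CPM in the SHMT libraries, so it rested on replicates 1 and 3 and overlapped with wild type in replicate 2, and it lost its call when any 1 wild-type library was left out.

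**Figure D3:**
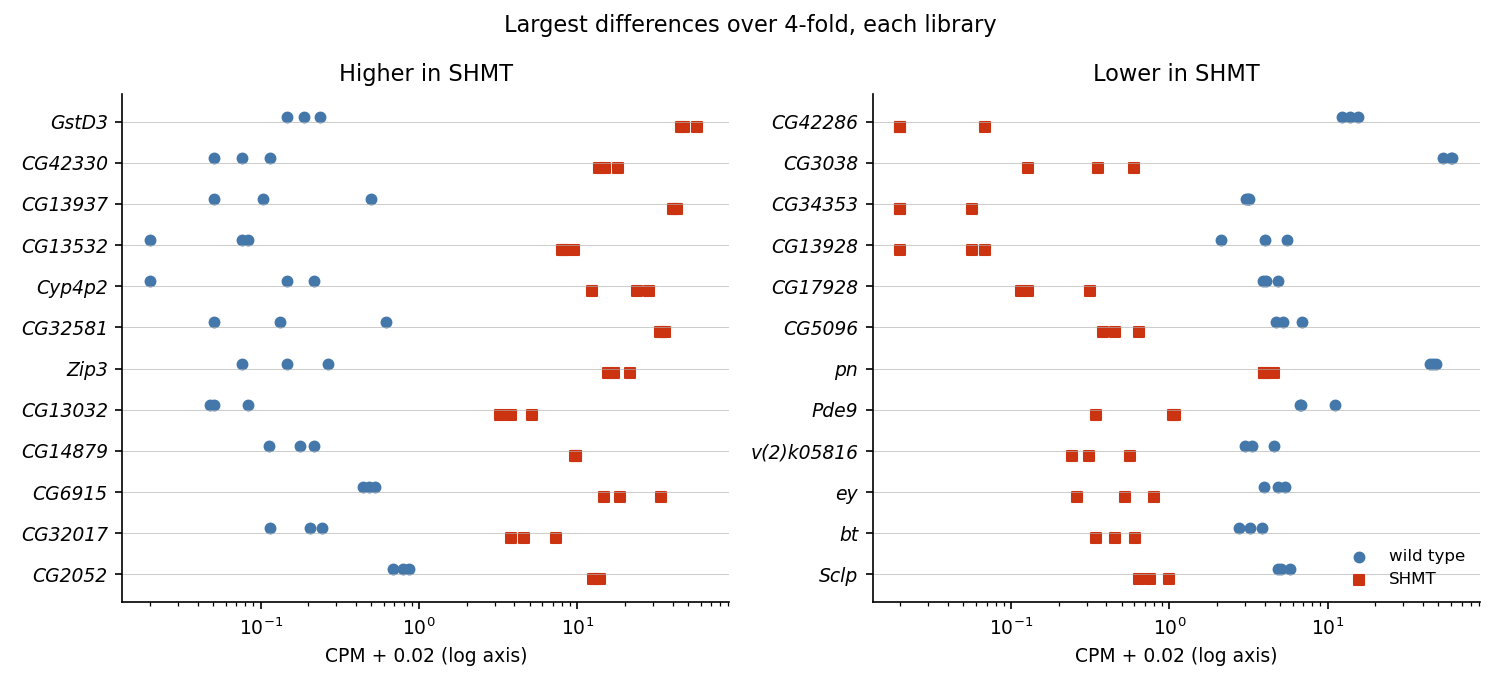
CPM plus 0.02 (log axis) in each of the 3 wild-type (circles) and 3 SHMT libraries (squares) for the 12 higher and 12 lower genes with the largest differences among those over 4-fold, with no overlap and a mean of 100 counts or more where they are higher. The groups lie apart in each gene by this choice, and wild type is under 1 CPM in all 12 higher genes.

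Some of the 31 genes over 4-fold lower in SHMT had almost no reads there. In 5 of them SHMT averaged under 0.3 CPM and wild type over 2 CPM. Others were as low in SHMT but had under 2 CPM in wild type, so the limits leave them out. Examples are Sdic3, at a mean of 1.55 CPM in wild type against 0.0120 in SHMT, and ap, at 1.73 against 0.114. CG42286 stood at 13.8, 15.6 and 12.3 CPM in wild type, 1392 reads in all, and had 1 read in the 3 SHMT libraries, a ratio of 1056 (95% counting interval 189 to 41731). CG3038 stood at 60.1, 61.0 and 53.6 CPM in wild type against 0.578, 0.108 and 0.332 in SHMT (−7.50 ± 0.23, adjusted p = 9.3e-07). For CG34353 1 read in SHMT stood against 309 in wild type, a ratio of 234 (41.8 to 9287), and for CG13928 2 stood against 391, a ratio of 148 (40.8 to 1229). CG17928 was at 4.05, 3.89 and 4.80 against 0.0963, 0.108 and 0.295 CPM (−4.60 ± 0.37, adjusted p = 1.4e-04), and CG5096 at 4.68, 5.18 and 6.81 against 0.433, 0.361 and 0.627 CPM (−3.54 ± 0.28, adjusted p = 1.4e-04). The sperm dynein gene Sdic3, with 154 reads in wild type and 1 in SHMT, belongs to a cluster of near-identical copies and its count is uncertain.

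The 31 lower genes held ey, tio, ap and CG11093, described here after their values were seen. The eye selector gene ey, a Pax6 homologue, stood at 4.84, 5.32 and 3.96 CPM in wild type against 0.241, 0.505 and 0.775 in SHMT (−3.17 ± 0.35, adjusted p = 7.4e-04). The zinc-finger gene tio stood at 2.37, 2.80 and 2.63 against 0.241, 0.289 and 0.332 CPM (−3.15 ± 0.25, adjusted p = 1.3e-04), and ap, the LIM-homeodomain selector of the dorsal wing, at 1.87, 1.76 and 1.55 against 0.0481, 0.0361 and 0.258 CPM (−3.82 ± 0.51, adjusted p = 0.0020). CG11093 (fuss), of the Ski and Sno family, stood at 23.8, 29.4 and 19.7 against 4.53, 6.39 and 6.05 CPM (−2.10 ± 0.18, adjusted p = 2.1e-04). The groups lay apart in all 4 genes, at low levels.

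Tollo, PGRP-LC and CG8964, which encode receptors, and 4 further genes were also over 4-fold lower and were chosen after their values were seen. Tollo, a Toll-family receptor, stood at 91.8, 103 and 63.6 CPM in wild type against 21.2, 20.0 and 21.2 in SHMT (−2.05 ± 0.16, adjusted p = 1.4e-04). PGRP-LC, the peptidoglycan receptor of the Imd pathway, stood at 12.1, 13.4 and 9.35 against 4.33, 2.09 and 2.10 CPM (−2.05 ± 0.30, adjusted p = 0.0028), and lost its call in the 12-library fit (adjusted p = 0.078). CG8964 (otk2), a relative of the Off-track receptor, stood at 14.7, 18.7 and 11.5 against 3.76, 3.10 and 4.10 CPM (−2.04 ± 0.20, adjusted p = 4.7e-04). Pde9, a phosphodiesterase, stood at 6.73, 6.63 and 11.1 against 1.06, 0.325 and 1.03 CPM (−3.36 ± 0.41, adjusted p = 0.0012), and v(2)k05816 (FASN2), a fatty acid synthase, at 3.29, 4.59 and 3.00 against 0.289, 0.541 and 0.221 CPM (−3.34 ± 0.35, adjusted p = 6.2e-04). The muscle gene bt stood at 2.72, 3.83 and 3.19 against 0.433, 0.325 and 0.590 CPM (−2.84 ± 0.29, adjusted p = 4.7e-04) and the X-linked gene Sclp at 5.06, 5.77 and 4.80 against 0.626, 0.974 and 0.738 CPM (−2.72 ± 0.23, adjusted p = 1.9e-04).

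Of 14 tested genes in the cell death list of 22, 5 (35.7%) fell, against 10.1% of all genes, and none rose, with a median of −0.13. The tumor necrosis factor egr (Eiger) stood at 7.05, 6.49 and 5.92 CPM in wild type against 1.35, 1.44 and 1.70 in SHMT (−2.11 ± 0.18, adjusted p = 2.1e-04). Nc (Dronc), the initiator caspase, stood at 156, 155 and 158 against 99.5, 112 and 107 CPM (−0.56 ± 0.060, adjusted p = 6.7e-04). The executioner caspase Dcp-1 stood at 90.4, 80.7 and 89.4 against 63.0, 62.5 and 66.9 CPM (−0.44 ± 0.064, adjusted p = 0.0030). The groups did not overlap in any. The caspase genes dream (Strica, −0.35 ± 0.073, adjusted p = 0.013) and Ice (Drice, −0.26 ± 0.057, adjusted p = 0.017) made up the rest, so 4 of the 5 encode caspases. In the 12-library fit 6 members fell.

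The fourth chromosome, a small and largely heterochromatic arm, held more of the large differences than its number of genes. Of its 56 tested genes 18 passed (32.1%) and 7 were over 4-fold (12.5%), against 0.532 to 1.64% over 4-fold on the other arms. The 5 lower ones were ey, bt, CG11093, sphinx and CG31999, and the 2 higher ones CG2052 (dati) and CG32017. CG2052, a zinc-finger gene, stood at 0.664, 0.840 and 0.774 CPM in wild type against 13.0, 13.8 and 12.5 in SHMT (4.10 ± 0.16, adjusted p = 4.1e-06). CG32017 stood at 0.0948, 0.224 and 0.186 against 3.80, 7.29 and 4.58 CPM (4.91 ± 0.39, adjusted p = 1.4e-04). On the X chromosome, which carries the mutation, 247 of 1156 genes passed (21.4%) and 19 were over 4-fold (1.64%). The autosomal arms beside the fourth had 16.8 to 20.8% passing.

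Some of the called genes were neighbours in the order of tested genes on an arm. At any fold, 279 of the 1219 called genes on an arm (22.9%) lay next to another call of the same direction. Of the 70 genes over 4-fold placed on an arm, 6 (8.57%) lay next to another one of the same direction, in 3 pairs. Over all genes tested, 8.71% were called higher and 10.1% lower, and whether neighbours were more frequent than these shares give was not tested. The pairs were ey with bt and CG11093 with sphinx, both on the fourth chromosome and lower, and Nplp3 with CG4998 on arm 3L and higher. The last pair rests on Nplp3, whose call was lost when any wild-type library was left out. The noncoding RNA gene sphinx stood at 1.87, 1.99 and 1.39 CPM in wild type against 0.289, 0.253 and 0.295 in SHMT (−2.63 ± 0.27, adjusted p = 5.7e-04), and CG4998 at 0.0632, 0.140 and 0.589 against 3.27, 3.14 and 3.62 CPM (3.65 ± 0.57, adjusted p = 0.0042). GstD9, GstD1 and GstD3 stood in a row on arm 3R and all rose. The longest run was 8 adjacent tested genes on arm 3L that were all higher, from CG4603 to Aats-ala-m, chosen after its values were seen. Their differences lay between 0.27 for CG10671 (Fitm, a protein of lipid droplet formation) and 0.53 for CG4603 (Yod1, a deubiquitinase).

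Ranked by the difference in CPM, the changes were modest folds of well expressed genes. CPM grow with transcript length, so they rank reads and not molecules. The translation elongation factor Ef1alpha48D stood at 10797, 9517 and 9782 CPM in wild type against 12195, 11646 and 11555 in SHMT (0.23 ± 0.053, adjusted p = 0.019). The female germline thioredoxin dhd (deadhead), which helps to remove protamines from sperm chromatin, stood at 3285, 4307 and 3660.2 against 5326, 5143 and 5022 CPM (0.46 ± 0.090, adjusted p = 0.010). RpS5b, the germline-enriched copy of a small-subunit ribosomal protein, stood at 499, 500.2 and 487 against 873, 1002 and 1025 CPM (0.97 ± 0.070, adjusted p = 9.2e-05). The groups did not overlap in any of them. Idh, the NADP-dependent isocitrate dehydrogenase, had the largest fold of the 10 genes with the largest rise in CPM, at 251, 268 and 256 against 588, 585 and 567 CPM (1.17 ± 0.055, adjusted p = 1.0e-05). The tubulins betaTub56D (0.31 ± 0.049, adjusted p = 0.0045) and alphaTub84B (0.26 ± 0.069, adjusted p = 0.036), the RNA-binding factors tral (0.29 ± 0.075, adjusted p = 0.031) and Pep (0.49 ± 0.081, adjusted p = 0.0056), RpL41 (0.25 ± 0.063, adjusted p = 0.028) and blw (0.36 ± 0.086, adjusted p = 0.024), the ATP synthase α subunit, rose as well. Of the 10, RpS5b and Idh passed in the 12-library fit and the other 8 did not.

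Genes of the germline were among those with the largest fall in CPM, as dhd and RpS5b were among those with the largest rise. The germ plasm organizer osk stood at 1057, 1191 and 1195 CPM in wild type against 818, 590.0 and 578 in SHMT (−0.79 ± 0.13, adjusted p = 0.0054). CG9684 (Veneno), a Tudor-domain protein of the piRNA pathway, stood at 414, 441 and 383 against 181, 189 and 187 CPM (−1.15 ± 0.067, adjusted p = 3.1e-05). In both the groups lay apart. The phosphatase gene l(1)G0232 (Ptpmeg2) stood at 370.2, 359 and 379 against 119, 128 and 120.4 CPM (−1.59 ± 0.058, adjusted p = 2.4e-06), CG4476 at 485, 407 and 397 against 241, 183 and 205 CPM (−1.03 ± 0.12, adjusted p = 7.9e-04), and CG4570 at 304, 322 and 359 against 183, 177 and 151 CPM (−0.95 ± 0.092, adjusted p = 4.0e-04). Orc1, the largest subunit of the origin recognition complex, stood at 580.1, 538 and 533 against 374, 300.3 and 321 CPM (−0.73 ± 0.087, adjusted p = 0.0011). CG17514 (−0.44 ± 0.095, adjusted p = 0.015), the replacement histone gene His3.3B (−0.30 ± 0.053, adjusted p = 0.0074) and the engulfment adaptor ced-6 (−0.28 ± 0.064, adjusted p = 0.019) fell by less. With sn these make 10. Of them osk (adjusted p = 0.31), CG17514, His3.3B and ced-6 did not pass in the 12-library fit.

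**Figure D4:**
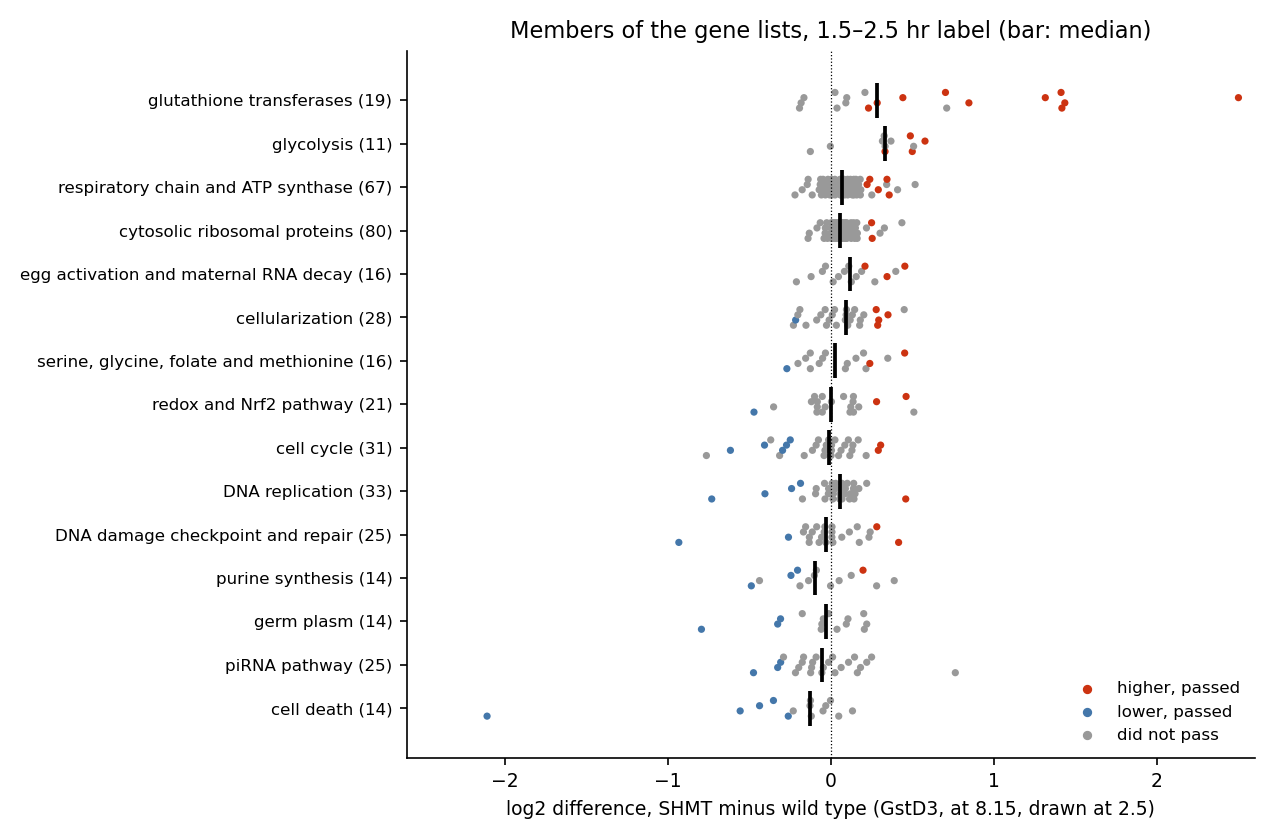
Log2 difference of SHMT minus wild type for each tested member of 15 gene lists, with the number tested in brackets, a bar at the list's median, and colours for members that passed in either direction. Glutathione transferases reach furthest to the right, with 10 of 19 higher, and cell death has 5 of 14 lower and none higher, while most other lists centre near 0.

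Calls in the lists of maternal genes are read beside those over all genes, 8.71% higher and 10.1% lower. Of 14 germ plasm genes 3 (21.4%) fell and none rose, osk, gcl and piwi. The gene gcl, needed to form the pole cells, stood at 414, 389 and 414 CPM in wild type against 329, 325 and 329 in SHMT (−0.31 ± 0.054, adjusted p = 0.0070), and piwi at 291, 316 and 320.3 against 234, 251 and 254 CPM (−0.33 ± 0.064, adjusted p = 0.011). The median of the list was −0.030. Of 25 piRNA pathway genes 3 fell and none rose, among them CG4771 (vret, −0.47 ± 0.060, adjusted p = 0.0014) and the nuclease zuc (−0.31 ± 0.056, adjusted p = 0.0077). Of 16 genes of egg activation and maternal RNA decay 3 (18.8%) rose and none fell, the kinase subunit png (0.45 ± 0.071, adjusted p = 0.0043), Fmr1 (0.34 ± 0.074, adjusted p = 0.015) and the deadenylase Pop2 (0.21 ± 0.054, adjusted p = 0.030). The maternal phosphatase twe stood at 315, 322 and 329 against 294, 327 and 335 CPM (−0.014 ± 0.066, adjusted p = 0.91, 95% interval −0.17 to 0.14). Of the called genes named here, CG4771 and zuc passed in the 12-library fit and osk, gcl, piwi, png, Fmr1 and Pop2 did not.

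The pathway of SHMT itself held calls at about the share of all genes. Of 16 tested genes of serine, glycine, folate and methionine metabolism 2 (12.5%) rose and 1 (6.25%) fell, against 8.71% and 10.1% of all genes (median 0.028). Ahcy13 (Ahcy), which hydrolyses S-adenosylhomocysteine, stood at 280.4, 305 and 304 CPM in wild type against 472, 361 and 385 in SHMT (0.45 ± 0.10, adjusted p = 0.017). CG11899, the predicted phosphoserine aminotransferase of serine synthesis, stood at 87.7, 94.1 and 89.2 against 111, 105 and 103 CPM (0.24 ± 0.057, adjusted p = 0.023). Sam-S, which makes S-adenosylmethionine, stood at 705, 637 and 685 against 519, 582 and 579 CPM (−0.27 ± 0.068, adjusted p = 0.029). These are differences of under 1.5-fold, and Ahcy13 (adjusted p = 0.074) and CG11899 (adjusted p = 0.21) did not pass in the 12-library fit. Of 14 purine genes 1 (7.14%) rose and 3 (21.4%) fell (median −0.10), among them CG32626, the AMP deaminase, at 134, 139.8 and 150.1 against 111, 98.1 and 93.8 CPM (−0.49 ± 0.077, adjusted p = 0.0044). Of 17 genes of pyrimidines and deoxynucleotides 2 (11.8%) fell and none rose. The β-ureidopropionase gene pyd3, of pyrimidine breakdown, stood at 11.1, 12.7 and 8.55 against 2.70, 2.24 and 3.25 CPM (−1.98 ± 0.21, adjusted p = 5.8e-04).

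Of 11 glycolytic genes 4 (36.4%) rose, against 8.71% of all genes, and none fell (median 0.33). Pglym78, a phosphoglycerate mutase, stood at 189, 204 and 206 CPM in wild type against 339.9, 283 and 270.1 in SHMT (0.58 ± 0.091, adjusted p = 0.0045), and Pgk, a phosphoglycerate kinase, at 189.5, 213 and 207 against 335, 254 and 273 CPM (0.50 ± 0.10, adjusted p = 0.013). Pfk, the rate-limiting phosphofructokinase, stood at 110.0, 109 and 112 against 186, 138 and 140.3 CPM (0.49 ± 0.11, adjusted p = 0.019). SHMT replicate 1 was the highest library in all 3. The aldolase gene Ald completed the 4 (0.33 ± 0.066, adjusted p = 0.012). None of the 4 passed in the 12-library fit, in which the list's median was 0.33. The other lists of this kind held no more calls than all genes. Of 67 genes of the respiratory chain and ATP synthase 5 (7.46%) rose and none fell (median 0.065), and of 80 genes of cytosolic ribosomal proteins 2 (2.50%) rose and none fell (median 0.055).

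Of 31 tested cell cycle genes 2 (6.45%) rose and 5 (16.1%) fell, against 8.71% and 10.1% of all genes (median −0.014). The mitotic cyclin CycB3 stood at 654, 633 and 619 CPM in wild type against 773, 793 and 791 in SHMT (0.31 ± 0.051, adjusted p = 0.0057), and stg, the Cdc25 phosphatase that drives mitosis, at 663, 636 and 644 against 789, 813 and 775 CPM (0.29 ± 0.051, adjusted p = 0.0070). The cyclin-dependent kinase inhibitors rux, at 17.0, 15.8 and 19.3 against 11.1, 11.7 and 11.2 CPM (−0.62 ± 0.10, adjusted p = 0.0061), and dap, at 322, 349 and 333 against 263, 285 and 269.7 CPM (−0.30 ± 0.061, adjusted p = 0.013), fell. Of these 4 only rux passed in the 12-library fit. The gene trbl, whose product promotes degradation of the stg and twe proteins, stood at 60.8, 64.9 and 54.6 against 55.4, 45.0 and 44.8 CPM (−0.31 ± 0.10, adjusted p = 0.060). The kinesin genes Khc (0.13 ± 0.066, adjusted p = 0.20) and Klc (0.10 ± 0.056, adjusted p = 0.23) did not pass.

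Genes of DNA replication and repair held calls at about or below the share of all genes, 8.71% higher and 10.1% lower. Of 33 replication genes 1 (3.03%) rose and 4 (12.1%) fell (median 0.054). Beside Orc1, Orc5 of the same complex stood at 78.1, 85.6 and 83.4 CPM in wild type against 65.3, 61.1 and 60.4 in SHMT (−0.40 ± 0.061, adjusted p = 0.0035), and CG15220 (RPA3), of the single-strand binding complex, at 67.0, 70.3 and 63.4 against 83.8, 101 and 91.2 CPM (0.46 ± 0.078, adjusted p = 0.0060). Of 25 genes of the damage checkpoint and repair 2 rose and 2 fell (median −0.031). The photolyase phr6-4 stood at 76.7, 69.9 and 73.9 against 37.7, 40.5 and 37.3 CPM (−0.93 ± 0.062, adjusted p = 6.0e-05), about 2-fold lower with no overlap, and the excision repair gene mei-9 at 56.4, 58.9 and 56.9 against 77.9, 77.1 and 74.9 CPM (0.42 ± 0.052, adjusted p = 0.0013).

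The share of all genes, 8.71% higher and 10.1% lower, stands beside the lists that follow. Of 28 cellularization genes 4 (14.3%) rose and 1 (3.57%) fell (median 0.091), including the formin dia (0.29 ± 0.062, adjusted p = 0.015), the anillin gene scra (0.29 ± 0.071, adjusted p = 0.025) and the myosin light chain sqh (−0.22 ± 0.054, adjusted p = 0.028), and none of these passed in the 12-library fit. Of 13 genes of heat shock and chaperones 1 (7.69%) rose, Hsp68, at 2.97, 1.88 and 4.96 CPM in wild type against 10.2, 7.61 and 7.60 in SHMT (1.37 ± 0.33, adjusted p = 0.022), and 1 fell, the heat shock factor gene Hsf (−0.23 ± 0.054, adjusted p = 0.024). Of 17 genes of the amino acid and ER stress response 2 (11.8%) fell, the insulin receptor InR (−0.58 ± 0.10, adjusted p = 0.0056) and the ER stress sensor Ire1 (−0.34 ± 0.064, adjusted p = 0.0088). Of 21 redox and Nrf2 pathway genes 2 (9.52%) rose and 1 (4.76%) fell, the catalase Cat, at 52.4, 43.2 and 57.6 against 39.8, 38.8 and 31.9 CPM (−0.47 ± 0.12, adjusted p = 0.030). The list's other members that passed were dhd and the thioredoxin Trx-2 (0.28 ± 0.072, adjusted p = 0.031), and its median was 0.0034. Of 34 proteasome genes 3 (8.82%) rose and none fell, and of 24 tRNA synthetase genes 3 (12.5%) rose and 1 (4.17%) fell, led by Rpt3R (1.00 ± 0.22, adjusted p = 0.018) and Aats-ala-m (0.53 ± 0.058, adjusted p = 7.3e-04). In the 12-library fit Cat and Rpt3R passed, while Hsp68, Hsf, InR, Ire1, dhd, Trx-2 and Aats-ala-m did not, with adjusted p-values between 0.051 for dhd and 0.52 for Trx-2.

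The same genotype comparison at the 0–1 hr label, made on other libraries of the same 2 stocks, was set beside the 71 genes over 4-fold. Values for that label come from the model of all 12 libraries, in which 32.9% of 6884 genes were higher and 25.8% lower in SHMT at that label, and 2.70% and 1.38% over 4-fold. Of the 40 genes over 4-fold higher here, 33 were higher there, 24 of them over 4-fold, 2 were lower and 5 did not pass. Of the 31 lower genes, 24 were lower there, 17 of them over 4-fold, none was higher and 7 did not pass. CG42330 differed by 7.38 ± 0.38 at that label, CG42286 by −7.59 ± 0.42 and CG3038 by −7.03 ± 0.29.

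The difference between the 2 labels was tested as an interaction of genotype and label, which passed in 38.5% of the 6884 genes. It passed in 18 of the 71. GstD3 differed by 2.74 ± 0.58 at the 0–1 hr label, where SHMT averaged 1.24 CPM, and the interaction was 5.38 ± 1.01 (adjusted p = 0.0017). CG6915 and CG6954 (wake) were lower in SHMT at that label, with differences of −2.49 ± 0.43 and −1.52 ± 0.50, with interactions of 8.03 ± 0.70 (adjusted p = 1.8e-05) and 4.19 ± 0.77 (adjusted p = 0.0015). Both genes thus changed direction between the labels. The genes egr, CG8964 and CG17352 (Culd, a cubilin relative) had differences of −0.51 ± 0.23, −0.14 ± 0.21 and 0.17 ± 0.23 there, none of which passed, and their interactions were −1.61 ± 0.37, −1.93 ± 0.31 and −2.38 ± 0.31 (adjusted p = 0.0060, 6.2e-04 and 1.7e-04).

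**Figure D5:**
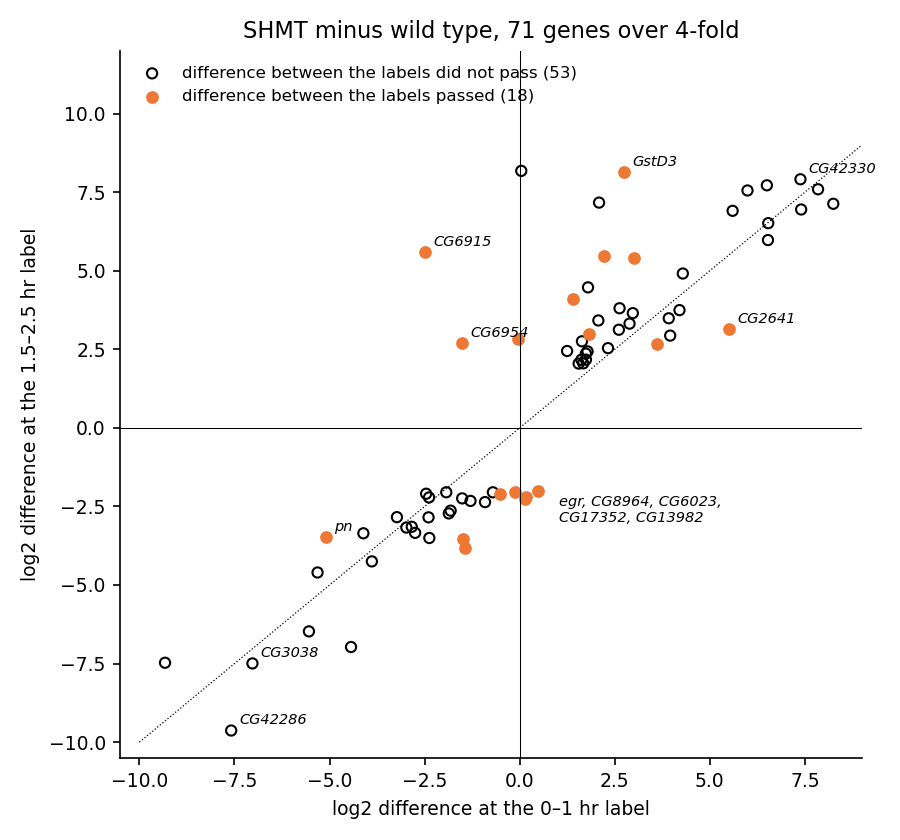
Log2 difference between SHMT and wild type for the 1.5–2.5 hr label (vertical) against that at the 0–1 hr label (horizontal) for the 71 genes over 4-fold at the former, with the line of equal difference dotted and filled points where the difference between the labels passed. Of the 71, 57 passed in the same direction at both labels, and CG6915 and CG6954 lie on opposite sides of 0.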

How the data were processed

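Per the labels, total RNA of whole embryos was sequenced for 2 genotypes and 2 collections, in triplicate. The submitters' processing notes name CASAVA 1.8.2, Bowtie2 2.1.0, HTSeq and the genome build dm3. The deposited files hold raw counts, the reads the authors assigned to each gene with HTSeq. Of HTSeq neither version nor strand option is known from the material used, and reads of overlapping or antisense genes may be mixed. The 5 summary lines of each file stayed out of library sizes and tests. In the 6 libraries used they held 4.57 to 6.95% of reads as lying in no gene and 1.48 to 1.53% as ambiguous.

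From the counts of the 6 libraries labelled 1.5–2.5 hr, genes averaging 50 counts or more in either group were tested with edgeR 4.0.16 (quasi-likelihood, TMM scaling, limma 3.58.1, R 4.3.3), with Benjamini-Hochberg adjustment. A call is an adjusted p under 0.05, also counted over 4-fold, the study's threshold for genotype. The level of the adjusted p was set here. The interaction of genotype and label was fitted to all 12 libraries with 4 group means, on the 6884 genes averaging 50 counts or more in any group. DESeq2 1.42.0, RLE scaling, library sizes alone, other minimums and thresholds, glmTreat, all 12 libraries, the replicate block and leaving out each library were the alternatives. Python 3.11.15 with matplotlib 3.10.9 drew the figures.

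The members, the 34 gene lists and the rule for named genes were chosen with earlier results of these data known, so the lists are described by counts and medians. Named genes are stage, marker and study genes, the 12 higher and 12 lower with the largest difference over 4-fold (at least 100 counts in the higher group, no overlap), the 10 with the largest CPM difference each way, up to 4 members per list and neighbouring calls over 4-fold. Genes in the 71 over 4-fold and other list members named beyond that rule were chosen after their values were seen. Names and arms come from the assembly Release 6 plus ISO1 MT, with 10669 symbols matched directly, 3235 by synonym and 257 not. Counting intervals are exact at 95% and cover counting error only.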

Additional observations from a re-analysis of the deposited data

Results flagged for a closer look

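The difference between SHMT and wild type was itself different between the 1.5–2.5 hr and 0–1 hr labels, by the interaction test in edgeR (adjusted p under 0.05, all 12 libraries), in 52 of the 115 genes named above that passed at the 1.5–2.5 hr label. Over all 6884 genes in that model the share was 38.5%. Each value below is the log2 difference at the 1.5–2.5 hr label minus that at the 0–1 hr label. Calls at the 1.5–2.5 hr label come from the fit of that label's libraries alone. Calls at the 0–1 hr label and interactions come from the model of all 12 libraries.

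In 18 genes the direction was opposite at the 0–1 hr label and passed there in the 12-library model. The 8 that were higher in SHMT at the 1.5–2.5 hr label had interactions of 8.03 for CG6915, 4.19 for CG6954, 0.76 for Ef1alpha48D, 0.86 for betaTub56D, 0.87 for alphaTub84B, 1.13 for Pep, 0.86 for CycB3 and 0.61 for dia. The 10 that were lower had −0.90 for Cyp4e2, −2.87 for osk, −0.74 for ced-6, −1.71 for gcl, −1.30 for piwi, −1.68 for CG4771, −3.33 for rux, −1.09 for Orc5, −3.03 for phr6-4 and −1.12 for Ire1. Of these 18, CG6915, CG6954, CG4771, rux, Orc5 and phr6-4 also passed at the 1.5–2.5 hr label in the 12-library model. The others did not, with adjusted p-values there between 0.082 for Cyp4e2 and 0.43 for alphaTub84B. The germline genes osk, gcl, piwi and CG4771 were lower in SHMT here and higher by 2.05, 1.38, 0.95 and 1.18 on the log2 scale at the 0–1 hr label.

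In 6 genes the difference was larger at the 1.5–2.5 hr label, with 5.38 for GstD3, 3.21 for CG4095, 1.14 for Fas2 and 2.66 for CG2052 among the higher and −2.06 for CG5096 and −2.39 for ap among the lower genes. In 17 it was larger at the 0–1 hr label and of the same direction. These were −0.81 for GstD1, −1.24 for Cyp6t1, −0.34 for CG10671, −0.70 for dhd, −1.95 for Idh, −0.68 for Fmr1, −0.38 for Pop2, −0.92 for CG11899, −2.48 for stg and −1.89 for Trx-2 among the higher genes. Among the lower genes they were 1.60 for pn, 0.56 for sn, 0.48 for Jheh1, 0.54 for Jheh2, 1.04 for CG9684, 1.19 for Orc1 and 0.44 for His3.3B.

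In 11 genes the difference did not pass at the 0–1 hr label. The interactions were 0.65 for RpS5b and 0.63 for Pgk, and −1.93 for CG8964, −1.61 for egr, −1.29 for CG4476, −0.83 for CG4570, −0.81 for CG32626, −0.58 for dap, −0.56 for Hsf, −1.005 for InR and −2.38 for CG17352.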

How the results depend on the processing

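Against 572 higher and 666 lower genes at any fold, 210 and 281 passed at an adjusted p under 0.01 and 196 and 286 with all 12 libraries in 1 model. Against 40 and 31 genes over 4-fold, a minimum of 1 count gave 136 and 109, filterByExpr 70 and 60, a mean of 200 counts 20 and 11, and a test against 4-fold itself (glmTreat) 23 and 9. The 18 genes over 4-fold whose difference also differed between the labels became 45, 29 and 9 under those 3 minimums, which test more or fewer genes. With each library left out in turn, 272 to 736 genes were higher and 372 to 769 lower at any fold. RLE scaling, DESeq2 and library sizes alone kept all 71 genes over 4-fold. Of 127 named genes that passed, 126 passed with RLE, 126 with DESeq2, 119 with library sizes alone and 62 with all 12 libraries, and none changed direction in any fit.

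The labels give the replicates numbers. Deviations from the group means of same-numbered libraries correlated at −0.26, 0.46 and 0.46 for replicates 1, 2 and 3. Those of differently numbered libraries correlated at −0.55 to 0.29, below the values of replicates 2 and 3. Pairs were to be taken only if all 3 correlations were over 0.1, so the numbers were not taken as pairs. Whether replicates 2 and 3 share a batch across the genotypes was not tested. With the replicate number as a block 424 genes were higher and 471 lower, and 104 of the 127 named genes passed. Genes with few reads in a group, such as Ac76E and CG34353, have folds known only within wide counting intervals. In 17 of the 40 higher genes wild type averaged under 0.3 CPM, with for example 1 read in all for Ac76E and 24 for CG32581.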

Other observations

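In 5 tested genes a single SHMT library held over 80% of the CPM of all 6 libraries, and they were chosen after their values were seen. The chitin synthase gene kkv stood at 0.284, 0.196 and 0.279 CPM in wild type against 0.433, 64.6 and 0.812 in SHMT (adjusted p = 0.051), and CG10933 (Dlish) at 0.126, 0.0280 and 0.0310 against 0.0481, 8.01 and 0 CPM (adjusted p = 0.091). Both were high in SHMT replicate 2 alone. CG4962, at 0, 0 and 0 against 0.0481, 0 and 6.38 CPM (adjusted p = 0.11), CG42857, at 0, 0.0560 and 0.310 against 0.144, 0.108 and 10.3 CPM (adjusted p = 0.092), and Nplp3 were high in SHMT replicate 3. Of the 5 only Nplp3 passed, and its call was lost when any of the 3 wild-type libraries was left out.

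Sry-alpha, nullo and Kr, already counted among the 7 tested early zygotic genes, were also high in replicate 2 of both genotypes. The blastoderm gene Sry-alpha stood at 16.0, 30.7 and 11.6 CPM in wild type against 8.86, 32.4 and 9.08 in SHMT, nullo, another gene of cellularization, at 1.99, 4.23 and 0.527 against 1.11, 5.16 and 0.480 CPM, and the gap gene Kr at 1.11, 2.91 and 1.08 against 0.385, 4.44 and 0.554 CPM. Their genotype differences were −0.20 ± 0.53, 0.0086 ± 0.88 and 0.093 ± 0.83, and none passed.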
